A study of Mus musculus with 14 samples.

Results

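The genes described here build the attachment of basal keratinocytes to the basement membrane: Itga6, Itgb4, Col17a1 and Dst of the hemidesmosome, Itga3 and Itgb1 of the neighbouring laminin-binding integrin, Lama3 and Lamb3 of laminin-332, and Col7a1 of the anchoring fibrils. They were chosen by name, with earlier results of these data known, so their share called is no independent test against that of all genes. They are 9 genes of the 21374 tested, and all 15 of their non-control array probes were kept of 55681 on the array. The cells were mSCC-38, a line from a mouse skin squamous cell carcinoma raised by the carcinogen DMBA and the tumour promoter TPA, and therefore 1 tumour's cells in all groups. Cells were transfected by lipid (RNAimax) with Si1AK or Si2AK, 2 different siRNAs against the transcript AK144841, or with a control siRNA called SiC, and were taken after 72 h. NT cells were not transfected, and their harvest time is not given. All groups grew in DMEM with fetal calf serum. The samples numbered 4 in NT, 3 in SiC, 4 in Si1AK and 3 in Si2AK, each on 1 array. Nothing in the labels says that they were separate cultures, so the p-values speak only of the spread among these samples, and that spread may be technical.

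A hemidesmosome is a rivet through the basal cell membrane. Inside the cell, dystonin and plectin tie keratin filaments to the integrin of alpha6 and beta4 chains, and collagen XVII spans the membrane beside it. Outside, the integrin holds laminin-332, an extracellular protein whose alpha3 and beta3 chains are made from Lama3 and Lamb3, and which in turn is fastened to the dermis by fibrils of collagen VII. Inherited loss of these parts causes blistering skin disease, and several of them are used as markers of invasion in squamous cell carcinoma.

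Levels below are log2 intensities minus the 75th percentile of the same array, so 0 is the brightness that 75% of probes stay under, and a level says nothing about how a gene compares with another gene. Every member probe was well above background on all 14 arrays. The arrays lay on 2 slides of 7, read in 1 scan day. Slide 1 held 1 SiC array (replicate 1) and slide 2 held 1 Si2AK array (replicate 3). SiC replicate 1 and Si2AK replicate 2 stood apart: their median processed signals were 270.9 and 107.5, against 23.5 to 58.7 elsewhere, and 90.5% and 84.8% of probes were well above background, against 51.8% to 59.4%. Of the SiC arrays, replicate 1 had the lowest level for 8 of the 9 members. How many of all genes were lowest there was not counted. The raised signal and these low levels lie on the same array, whose part in the results was not tested beyond the fits without it. AK144841 itself was not analysed here, and the knockdown is therefore not checked by any value. Of 12 keratinocyte markers, 11 were well above background on all 14 arrays, and the Cdh1 probe was not.

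With Si2AK, 5 of the 9 genes rose against SiC: Col17a1, Lama3, Itgb4, Lamb3 and Dst. Over all genes, 8.50% were called higher, 4.66% lower and 13.2% in either direction (limma, adjusted p under 0.05 over all genes). The median difference was 0.54 for the members and -0.02 for all genes, and 9 of 9 differences were positive. With Si1AK, 3 of the 9 rose against SiC, Lama3, Lamb3 and Dst, beside 3.18% of all genes called higher, 1.23% lower and 4.41% in either direction. The median there was 0.28 for the members and -0.06 for all genes. No member was lower by the test in either comparison. The comparisons share the SiC arrays. Without SiC replicate 1, 0 members passed with Si1AK and 4 with Si2AK. In bulk RNA a change in the number of cells that make a transcript and a change in RNA per cell cannot be told apart.

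**Figure D1:**
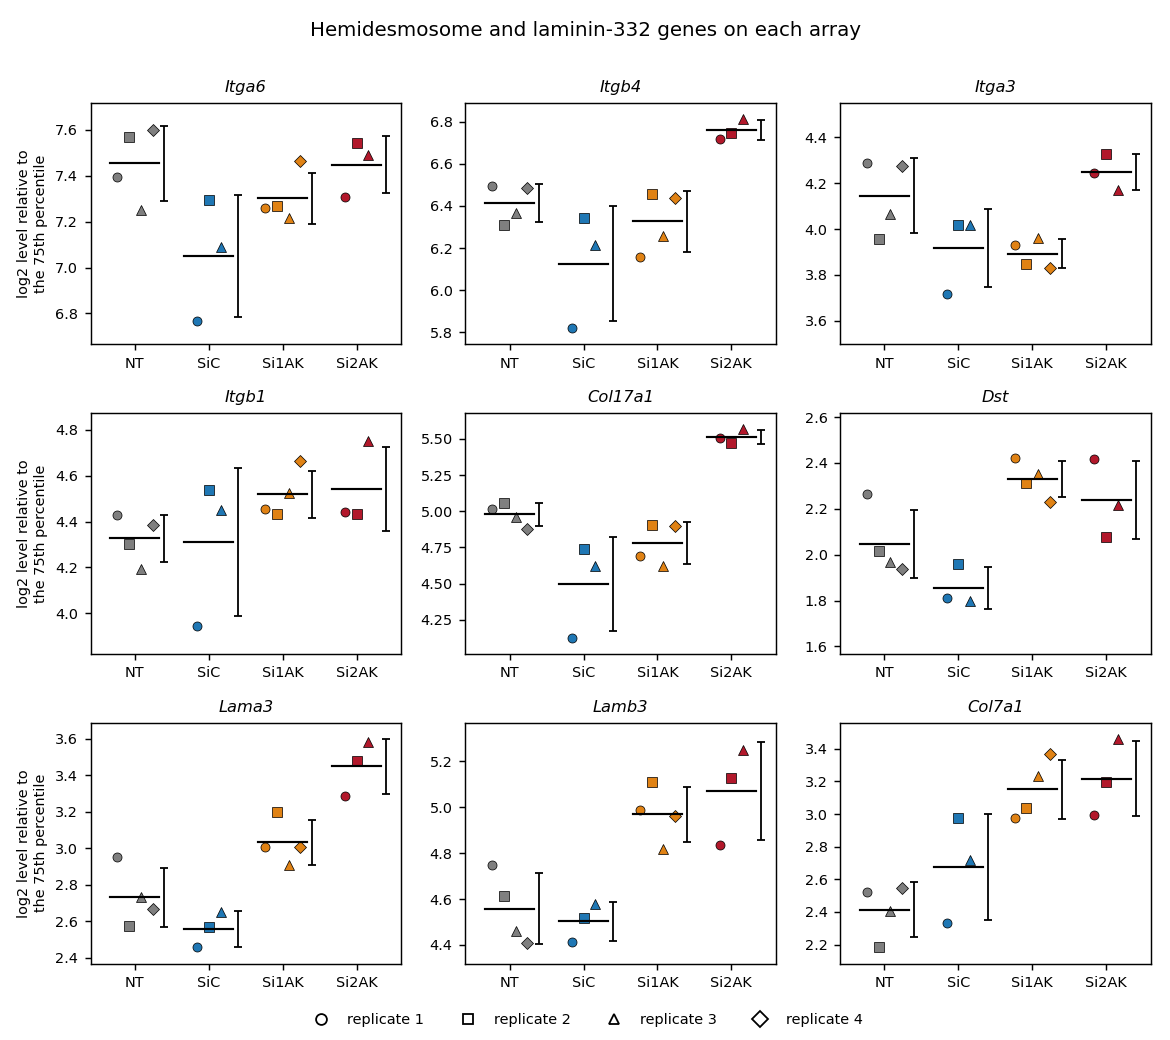
Level of each gene on each array (vertical axes: log2 intensity relative to the 75th percentile of the array; each panel has its own range), by group. Points are arrays, their shape marks the replicate, lines are group means and bars are SD. Col17a1, Itgb4 and Lama3 lie highest in Si2AK, Col7a1 and Lamb3 lie higher in Si1AK and Si2AK than in NT, and the lowest SiC point is replicate 1 in all panels but that of Dst.

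The alpha3 and beta3 chains of laminin-332 were higher with both siRNAs than with SiC. Lama3, its alpha3 chain (probe at mm9 chr18:12741458-12741517, plus strand), stood at 2.46, 2.57 and 2.65 on the SiC arrays, at 3.01, 3.20, 2.91 and 3.01 with Si1AK, and at 3.29, 3.48 and 3.58 with Si2AK. The NT arrays were at 2.95, 2.58, 2.73 and 2.67. All arrays of either siRNA lay above all SiC arrays, all Si2AK arrays lay above all Si1AK arrays, and 1 Si1AK array lay within the NT range. Group means were 2.56 ± 0.0978 (SD, n = 3) for SiC, 3.03 ± 0.121 (SD, n = 4) for Si1AK and 3.45 ± 0.150 (SD, n = 3) for Si2AK. Lama3 thus rose by 0.47 ± 0.110 (moderated SE; limma adjusted p = 0.0344) with Si1AK and by 0.89 ± 0.118 (limma adjusted p = 0.000724) with Si2AK, a 1.39-fold and a 1.85-fold change. The Si1AK value was 0.65 on slide 1 and 0.35 on slide 2, and the Si2AK value was 0.93 and 0.97. A further Lama3 probe, at mm9 chr18:12741067-12741126, gave 0.62 ± 0.129 and 0.95 ± 0.138 (limma adjusted p = 0.0235 and 0.00156 over all probes). Its direction and size thus matched those of the brighter probe in both comparisons.

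Lamb3, the beta3 chain (mm9 chr1:195170009-195170068, plus strand), stood at 4.41, 4.52 and 4.58 on the SiC arrays and at 4.75, 4.61, 4.46 and 4.41 on the NT arrays. With Si1AK it was at 4.99, 5.11, 4.82 and 4.96, and with Si2AK at 4.84, 5.13 and 5.25. Every array of either siRNA was above every array of both control groups, and the siRNA groups overlapped each other. Lamb3 rose by 0.47 ± 0.118 with Si1AK (limma adjusted p = 0.0474) and by 0.57 ± 0.126 with Si2AK (limma adjusted p = 0.0118). Within slide 1 these differences were 0.64 and 0.57, and within slide 2 they were 0.34 and 0.70. The Si1AK call lay close to the threshold and held in 7 of 29 alternative fits, while the Si2AK call held in 24.

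Col7a1, the collagen of the anchoring fibrils (mm9 chr9:108886861-108886920, plus strand), was the member whose SiC and NT levels differed upward. NT stood at 2.52, 2.18, 2.41 and 2.55, SiC at 2.33, 2.97 and 2.72, Si1AK at 2.98, 3.03, 3.23 and 3.37, and Si2AK at 3.0, 3.20 and 3.46. All siRNA arrays lay above all control arrays, the highest control being SiC replicate 2 at 2.97. Against SiC the differences were 0.48 ± 0.167 with Si1AK (limma adjusted p = 0.144) and 0.54 ± 0.179 with Si2AK (limma adjusted p = 0.069), neither of which passed. With the slide as a block both passed, at 0.53 (limma adjusted p = 0.0244) and 0.64 (limma adjusted p = 0.00657). Against NT, Col7a1 rose by 0.74 ± 0.155 (limma adjusted p = 0.0145) and by 0.80 ± 0.167 (limma adjusted p = 0.00721). The SiC minus NT difference was 0.26 ± 0.167 (limma adjusted p = 0.646).

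Col17a1, the transmembrane collagen of the hemidesmosome (mm9 chr19:47720894-47720953, minus strand), had the largest difference of the members. With Si2AK it was at 5.50, 5.47 and 5.57, a spread of 0.0494 (SD, n = 3), against 4.13, 4.74 and 4.62 with SiC, 4.69, 4.91, 4.62 and 4.90 with Si1AK, and 5.01, 5.06, 4.96 and 4.88 in NT. The Si2AK arrays lay above all other arrays, and the SiC arrays lay below all NT arrays. Col17a1 rose by 1.02 ± 0.142 with Si2AK against SiC (limma adjusted p = 0.00103), a 2.02-fold change, and by 0.83 without SiC replicate 1 (limma adjusted p = 0.000795). It was 1.36 within slide 1 and 0.89 within slide 2. With Si1AK the difference was 0.28 ± 0.133 (limma adjusted p = 0.281), and 0.10 without SiC replicate 1. Against NT it rose by 0.54 ± 0.133 with Si2AK (limma adjusted p = 0.0179) and was at -0.20 ± 0.123 with Si1AK (limma adjusted p = 0.401).

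Itgb4, the integrin chain with the long cytoplasmic tail that recruits plectin (mm9 chr11:115869666-115869725, plus strand), showed the same ordering of groups as Col17a1. It was at 6.72, 6.75 and 6.81 with Si2AK, at 6.16, 6.46, 6.26 and 6.44 with Si1AK, at 5.82, 6.34 and 6.21 with SiC, and at 6.50, 6.31, 6.37 and 6.48 in NT. Only the Si2AK arrays stood clear of the rest, while Si1AK, SiC and NT overlapped. Itgb4 rose by 0.63 ± 0.13 with Si2AK against SiC (limma adjusted p = 0.00821), 0.91 within slide 1, 0.53 within slide 2 and 0.48 without SiC replicate 1. With Si1AK the difference was 0.20 ± 0.121 (limma adjusted p = 0.384), and against NT the Si2AK difference was 0.35 ± 0.121 (limma adjusted p = 0.0805). The latter passed with the slide as a block (0.37, limma adjusted p = 0.0462), without SiC replicate 1 (limma adjusted p = 0.0165), under quantile normalization (limma adjusted p = 0.0147) and in the authors' value table (limma adjusted p = 0.0148).

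Itga6, the alpha chain that pairs with Itgb4, was read by 2 probes that did not move alike, so the start of each is shown, 5′ to 3′, with no letters marked. The brighter probe was designed from NM_008397 (mm9 chr2:71694756-71694815, plus strand) and the other from the Ensembl transcript ENSMUST00000139760 (mm9 chr2:71690633-71690692, plus strand).
A_55_P2015670, first 30 of 60 bases: gagaatgagaacctgggaggtcttgttgtt
A_55_P1958840, first 30 of 60 bases: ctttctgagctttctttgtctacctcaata
The brighter probe stood at 7.40, 7.57, 7.25 and 7.60 in NT, 6.77, 7.30 and 7.09 with SiC, 7.26, 7.27, 7.22 and 7.47 with Si1AK, and 7.31, 7.54 and 7.49 with Si2AK. The Si2AK arrays lay just above the highest SiC array, 7.30, and the other pairs of groups overlapped, with SiC replicate 1 the lowest of all arrays. Its differences from SiC were 0.25 ± 0.132 with Si1AK and 0.40 ± 0.141 with Si2AK (limma adjusted p = 0.325 and 0.0899), and the Si2AK value was 0.26 without SiC replicate 1. It passed under quantile normalization (0.31, limma adjusted p = 0.017), in the authors' value table (0.30, limma adjusted p = 0.0317) and without SiC replicate 2 (0.52, limma adjusted p = 0.0405). The other probe read 1.30, 1.45 and 1.60 with SiC, 2.18, 1.85, 1.84 and 1.70 with Si1AK, and 1.45, 1.10 and 1.46 with Si2AK, with NT at 1.72, 1.60, 1.46 and 1.62. Here Si1AK was the high group and all Si2AK arrays lay below all Si1AK arrays. Its Si2AK minus Si1AK difference was -0.56 ± 0.133 (limma adjusted p = 0.02 over all probes), beside 0.15 ± 0.133 for the brighter probe (limma adjusted p = 0.585 over all probes). Whether the probes read different transcripts of the gene was not tested.

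Dst encodes dystonin, a plakin whose epithelial form ties keratin to the hemidesmosome and whose longer forms serve neurons and muscle. It was read by 4 probes, 1 of which was called, so their first 30 bases are given, each 5′ to 3′ on the plus strand of mm9 chromosome 1.
A_51_P489996, from NM_010081, chr1:34239785-34239844: gaaagctgattttgatttccacacaggact
A_52_P445253, from NM_133833, chr1:34209337-34211389: cgaaggtggcgaaggcattggtgcaaacga
A_51_P300434, from NM_134448, chr1:34364644-34364703: aggaagaaagaacttaacatgaactgatgt
A_55_P2161132, from NM_001276764, chr1:34365447-34365506: catactagagaaagatattagtatgcattt
The probe A_51_P489996, the brightest, stood for the gene. It was at 1.81, 1.96 and 1.80 with SiC, 2.42, 2.31, 2.35 and 2.23 with Si1AK, 2.42, 2.08 and 2.22 with Si2AK, and 2.26, 2.02, 1.97 and 1.94 in NT. Both siRNA groups lay above all SiC arrays and overlapped NT replicate 1. Dst rose by 0.47 ± 0.104 with Si1AK (limma adjusted p = 0.0253) and by 0.38 ± 0.111 with Si2AK (limma adjusted p = 0.0418) against SiC. The within-slide differences were 0.56 and 0.41 with Si1AK and 0.44 and 0.34 with Si2AK, for slides 1 and 2 in turn. The values depended on the probe: with the mean of the 4 probes they were 0.03 and 0.21 (limma adjusted p = 0.915 and 0.395). The Si1AK call held in 17 of 29 alternative fits. The Si2AK call held in 7, was lost with the slide as a block (0.36, limma adjusted p = 0.0513) and was lost without SiC replicate 1 (0.36, limma adjusted p = 0.088), as was the Si1AK call (0.45, limma adjusted p = 0.0636). The other 3 probes passed in none of the 6 comparisons. For Si1AK minus SiC they gave 0.04 ± 0.22 (A_51_P300434), -0.10 ± 0.176 (A_52_P445253) and -0.32 ± 0.236 (A_55_P2161132), with limma adjusted p = 0.925, 0.763 and 0.465 over all probes. For Si2AK minus SiC the same probes gave 0.21 ± 0.235, 0.09 ± 0.188 and 0.16 ± 0.253, all positive like the brightest. Differences between probes were not tested.

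**Figure D2:**
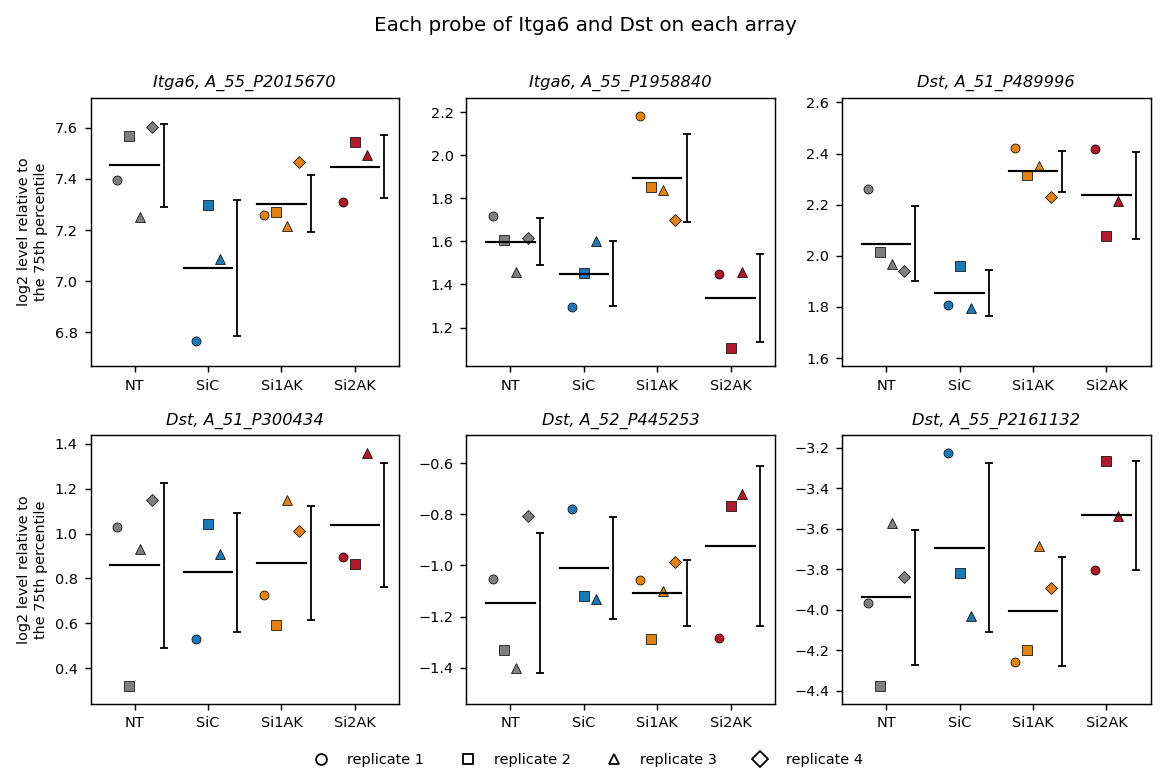
Levels of the 2 Itga6 probes and the 4 Dst probes on each array (vertical axes: log2 intensity relative to the 75th percentile of the array; ranges differ between panels), by group, with group means and SD bars. The Itga6 probe A_55_P1958840 is highest in Si1AK while A_55_P2015670 is not, and of the Dst probes only A_51_P489996 has all siRNA points above all SiC points.

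The remaining integrin pair, Itga3 and Itgb1, binds laminin-332 in focal contacts rather than hemidesmosomes. Itga3 (mm9 chr11:94906334-94906393, minus strand) stood at 4.29, 3.96, 4.06 and 4.28 in NT, 3.72, 4.02 and 4.02 with SiC, 3.93, 3.85, 3.96 and 3.83 with Si1AK, and 4.24, 4.33 and 4.17 with Si2AK. The Si2AK arrays lay above all arrays of SiC and Si1AK, and overlapped NT. Its differences from SiC were -0.03 ± 0.105 with Si1AK and 0.33 ± 0.112 with Si2AK (limma adjusted p = 0.908 and 0.0771). Itgb1, the beta chain shared by many integrins (probe A_66_P113059, designed across mm9 chr8:131250081-131255976, plus strand), ranged from 4.19 to 4.43 in NT, 3.94 to 4.54 with SiC, 4.44 to 4.66 with Si1AK and 4.43 to 4.75 with Si2AK. These ranges overlapped, apart from NT with either siRNA. Itgb1 differed from SiC by 0.21 ± 0.141 and 0.23 ± 0.15 (limma adjusted p = 0.427 and 0.399). A further Itgb1 probe (A_52_P351816, chr8:131246349-131246408) gave 0.40 ± 0.174 and 0.45 ± 0.186, which did not pass either (limma adjusted p = 0.247 and 0.161 over all probes).

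The siRNAs were also compared with each other, which needs no control array. Of the 9 members, 4 were higher with Si2AK than with Si1AK and none was lower by the test, beside 6.31% of all genes called higher, 6.14% lower and 12.4% in either direction. Col17a1 was higher by 0.73 ± 0.133 (limma adjusted p = 0.00381), Itgb4 by 0.43 ± 0.121 (limma adjusted p = 0.0376), Lama3 by 0.42 ± 0.110 (limma adjusted p = 0.0283) and Itga3 by 0.36 ± 0.105 (limma adjusted p = 0.046). All genes together had a median of 0.10 in this comparison, and relative to it these values were 0.64, 0.33, 0.32 and 0.26. The Col17a1 difference was 0.69 on slide 1 and 0.81 on slide 2, that of Itgb4 0.42 and 0.46, that of Lama3 0.28 and 0.62, and that of Itga3 0.40 and 0.28. The Col17a1 call held in 27 of 29 alternative fits, those of Itgb4 and Lama3 in 19 each, and that of Itga3 in 8. The dimmer Lama3 probe did not pass here (0.33 ± 0.129, limma adjusted p = 0.143 over all probes). For Lamb3, Col7a1, Itgb1 and Dst the differences were 0.10, 0.07, 0.02 and -0.09, all within 1 moderated SE of 0 (0.118, 0.167, 0.141 and 0.104). That these genes respond alike to both siRNAs is not shown by this.

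**Figure D3:**
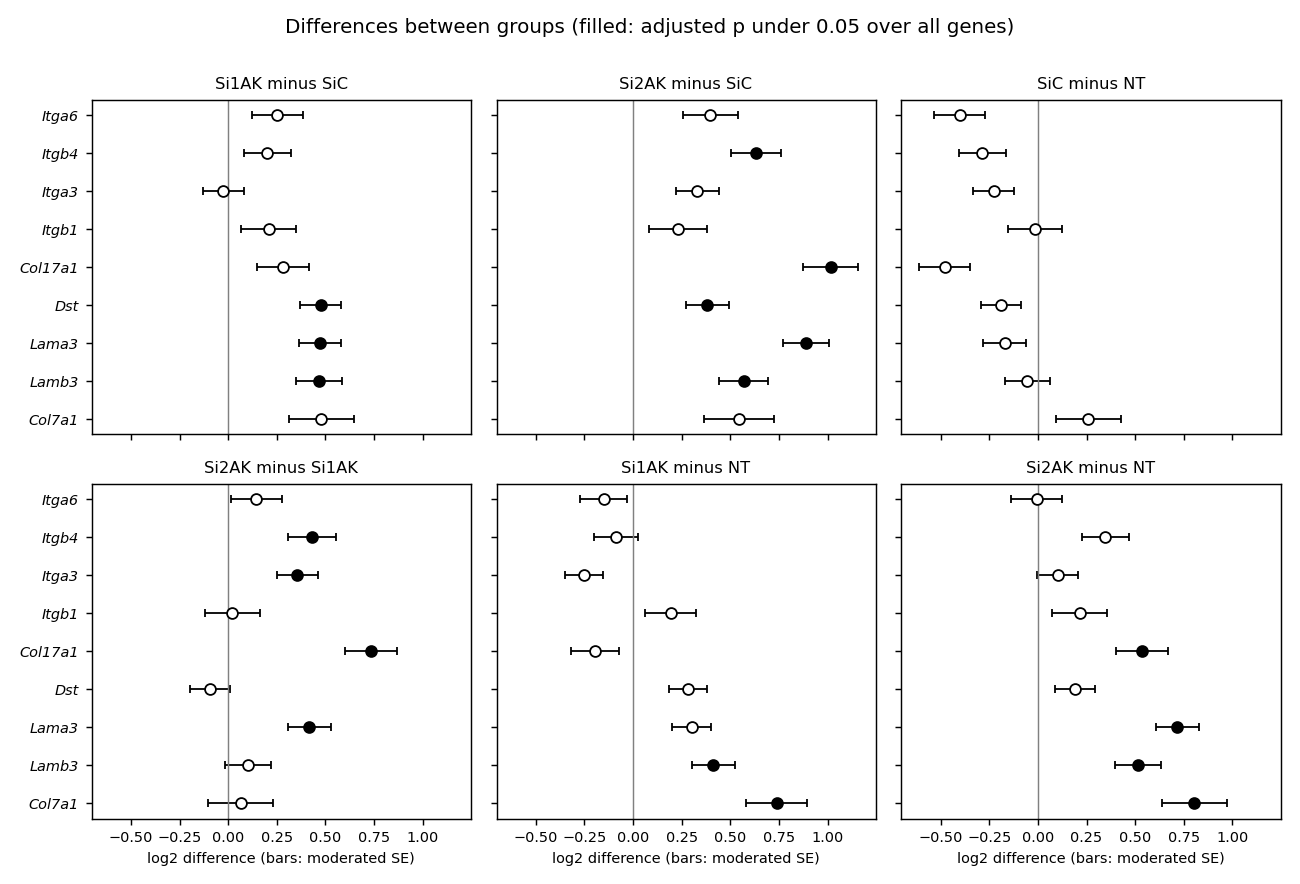
Log2 differences between groups for the 9 genes (horizontal axes: log2 difference, first group minus second, with moderated SE bars), 1 panel for each of the 6 comparisons. Filled points passed at an adjusted p under 0.05 over all genes: 3 against SiC with Si1AK, 5 with Si2AK, 0 for SiC against NT, and 4, 2 and 4 in the lower panels.

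Untransfected cells gave another baseline, in which any effect of transfection adds to that of the siRNA. Against NT, 2 of the 9 members rose with Si1AK, Col7a1 and Lamb3 (0.41 ± 0.109, limma adjusted p = 0.0432), beside 4.02% of all genes called higher, 3.03% lower and 7.05% in either direction. With Si2AK 4 rose, Col7a1, Lama3 (0.72 ± 0.110, limma adjusted p = 0.0012), Col17a1 and Lamb3 (0.51 ± 0.118, limma adjusted p = 0.0116), beside 7.96% called higher, 7.67% lower and 15.6% in either direction. Lamb3 was thus the member called with both siRNAs against both controls, although its Si1AK call against SiC was lost without SiC replicate 1 (0.42, limma adjusted p = 0.121) and its Si1AK call against NT held in 14 of 29 alternative fits. The latter was lost without any 1 of the 4 Si1AK arrays, of NT replicates 2, 3 and 4, of SiC replicates 2 and 3 or of Si2AK replicate 2, and was 0.37 on slide 1 and 0.46 on slide 2. Within slides 1 and 2 the Si1AK difference of Col7a1 was 0.65 and 0.82, and the Si2AK differences of Col7a1, Lama3, Col17a1 and Lamb3 were 0.74 and 0.98, 0.62 and 0.88, 0.45 and 0.65, and 0.30 and 0.82. Without Si2AK replicate 3, Col17a1 and Lamb3 no longer passed with Si2AK and 2 members were called, and without Si2AK replicate 1 Col17a1 did not pass.

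Between SiC and NT limma called 0 of the 9 members and 0 of all 21374 genes (percent called: 0), while 1586 genes had an unadjusted p under 0.05. Differences of 8 of the 9 members were nonetheless negative, with a median of -0.19 against -0.01 for all genes. Col17a1 was at -0.48 ± 0.133, Itga6 at -0.40 ± 0.132 and Itgb4 at -0.29 ± 0.121 (limma adjusted p = 0.636 for each). Without SiC replicate 1 these were -0.30, -0.26 and -0.14, and on slide 1, where that array is the only SiC sample, they were -0.91, -0.71 and -0.58.

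**Figure D4:**
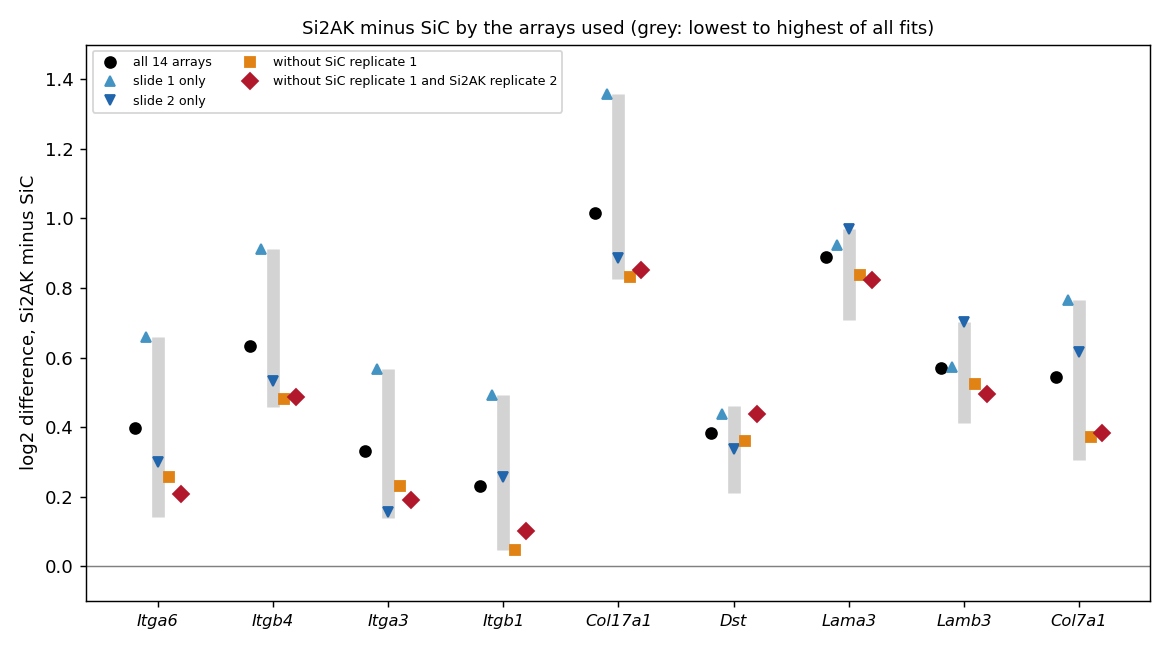
Si2AK minus SiC differences of the 9 genes (vertical axis: log2 difference) from all arrays, from either slide alone, and without 1 or both arrays of raised signal. Grey bars run from the lowest to the highest value of all fits tried; Col17a1 stays between 0.83 and 1.36 and Lama3 between 0.71 and 0.97, and no value falls below 0.

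Partner genes of the hemidesmosome were read from the same fit. With Si2AK against SiC, Plec, the plakin plectin, rose by 0.47 ± 0.12 (limma adjusted p = 0.0229) and Krt14, the basal keratin, by 0.36 ± 0.0896 (limma adjusted p = 0.0222), while Krt5, the other basal keratin, was at 0.10 and the tetraspanin Cd151 at 0.14. With Si1AK, Plec rose by 0.45 ± 0.112 (limma adjusted p = 0.043). Without SiC replicate 1 the Plec values were 0.44 and 0.42, with Si2AK and Si1AK in turn, neither of which passed, and Krt14 lay at the threshold (0.33, limma adjusted p = 0.05). The Krt14 call held in 18 of 29 alternative fits. Against NT, Krt14 and its partner keratin Krt5 fell by 0.40 and by 0.35 with Si1AK (limma adjusted p = 0.00908 and 0.0397).

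Keratinocyte markers were higher in Si2AK too. With Si2AK against SiC 6 of 11 tested rose, 0 fell and 5 were not called (median 0.58), among them Krt16, a keratin of activated epidermis (1.38), Sfn, an epithelial 14-3-3 protein (0.88), and Dsp, desmoplakin of the desmosome (0.64). Without SiC replicate 1, Krt16 (1.28) and Sfn (0.75) still passed and Dsp (0.52, limma adjusted p = 0.0545), Perp and Trp63 did not. Their summed linear level ran from 803 to 1013 on the SiC arrays, 849 to 948 with Si1AK, 1114 to 1130 with Si2AK and 1017 to 1208 in NT, so that Si2AK lay inside the NT range, and 4 of the 11 rose with Si2AK against NT. The part of this shift in the values of the hemidesmosome genes was not tested. Summed fibroblast markers ran from 1.03 to 1.82 with SiC, 1.07 to 1.57 with Si1AK, 1.58 to 2.13 with Si2AK and 0.868 to 1.10 in NT. Of these 9 fibroblast markers 3 were above background on all arrays (Col1a1, Col1a2 and Pdgfra), and Pdgfra rose with Si2AK against SiC by 0.84. The other fibroblast markers were above background on some arrays but not on all. Of 8 leukocyte markers 5 were above background on all arrays (Cd3e, Itgam, Csf1r, Cd79a and Cd68), and Ptprc was not. Of 5 endothelial markers 3 were (Pecam1, Cdh5 and Kdr). Melanocyte markers summed to 2.36 to 2.65 with SiC, 2.26 to 2.55 with Si1AK and 3.89 to 4.18 with Si2AK. There Mitf, the master factor of melanocytes, rose by 0.97 against SiC and the other 3 tested were not called. The median of the 4 tested was -0.29 in that comparison, so these markers did not rise together although their sum was higher. For leukocyte markers the sums were 11.2 to 16.5, 13.98 to 15.88 and 10.97 to 11.93 in the same order, and for endothelial markers 8.09 to 9.59, 7.90 to 9.40 and 8.82 to 11.4. The part of these markers in the members' differences was not tested.

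Other adhesion genes were counted in lists. Of 12 other integrin subunits tested, 3 rose with Si2AK against SiC: Itga2 of the collagen receptor (0.93 ± 0.187), Itga5 of the fibronectin receptor (0.68 ± 0.192) and Itga7, another laminin-binding chain (0.61 ± 0.154). Without SiC replicate 1 Itga5 did not pass (0.58, limma adjusted p = 0.103). With Si1AK 1 of 12 rose, Itgb3 of the vitronectin receptor (1.06 ± 0.125, limma adjusted p = 0.000957), and its Si2AK minus Si1AK difference was -0.85 ± 0.125 (limma adjusted p = 0.000989). Medians of this list were 0.06 and 0.10. Of 17 other basement membrane genes tested, 0 were called with Si2AK against SiC and 1 with Si1AK, Col4a1 of type IV collagen (0.52 ± 0.13, limma adjusted p = 0.0459), with medians of 0.11 and 0.20. Col4a1 did not pass without SiC replicate 1 (0.41, limma adjusted p = 0.131). The 17 were those tested of 26 listed, and against NT 1 of them rose with Si2AK. Over all genes, 8.50% were called higher and 4.66% lower with Si2AK against SiC, and 3.18% and 1.23% with Si1AK. Whether these lists differ from all genes, or from Lama3 and Lamb3, was not tested.

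Among 23 genes that link integrins to actin, 7 rose and 2 fell with Si2AK against SiC, with a median of 0.25. Fermt2, a kindlin, was higher by 0.52, Zyx (zyxin) by 0.47, Lims1 (an adaptor of integrin-linked kinase) by 0.47 and Vcl (vinculin) by 0.46, while Tln2 (a talin) and Parvb (a parvin) fell, with differences of -0.71 and -0.60. These 6 also passed without SiC replicate 1, while the other 3 that rose, Ptk2 (0.31), Parva (0.34) and Ilk (0.24), did not (limma adjusted p = 0.0829, 0.0577 and 0.113). With Si1AK 2 of 23 rose, Parva (0.44) and Vcl (0.36), neither of which passed without that array, and Tln2 fell, at -0.61. The Si1AK values of Parva and Tln2 changed sign in other fits, Parva to -0.51 when all its probes were averaged and Tln2 to 0.01 and 0.04 under quantile normalization and in the authors' value table. Of 8 regulators of basal keratinocytes tested, 2 rose with Si2AK, Trp63 (0.58 ± 0.151), the master factor of basal epidermis, and Tfap2c (0.72 ± 0.205), and 0 passed with Si1AK. Neither passed without SiC replicate 1 (Trp63 0.44, limma adjusted p = 0.0746, and Tfap2c 0.78, limma adjusted p = 0.0545). Trp63 was also higher with Si2AK than with Si1AK, by 0.72, and Grhl3, a factor of barrier formation, was at -1.11 there.

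Collagens XVII and VII need proline and lysine hydroxylation. Of 13 genes for collagen modification and secretion, 3 rose with Si2AK against SiC and 1 with Si1AK. With Si2AK they were the prolyl hydroxylases P4ha1 (0.66 ± 0.149) and P3h1 (0.42 ± 0.0984) and the isomerase Ppib (0.36 ± 0.107). With Si1AK it was the lysyl hydroxylase Plod2 (0.79 ± 0.134, limma adjusted p = 0.00696). Medians of this list were 0.30 with Si2AK and 0.18 with Si1AK. Without SiC replicate 1 all but Ppib of these 4 passed. Of 10 proteases that process or shed the members, 0 passed with Si2AK against SiC. With Si1AK Adam9 rose (0.56 ± 0.132), but did not pass without SiC replicate 1. Pcsk6 was well above background on 3 of 3 SiC arrays and on 0 of 4 Si1AK arrays. The SiC arrays by themselves let its probe through the filter, so its lower value with Si1AK is not read as a call. That difference did not pass without SiC replicate 1 either. Mmp9 was well above background on 0 of 4 NT, 1 of 3 SiC, 4 of 4 Si1AK and 3 of 3 Si2AK arrays.

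For the promoters, RefSeq windows (build GRCm38.p6) were used for 6 members, 9 windows in all: Itga3, Itgb1, Col17a1, Col7a1, Lamb3 and Dst. Itga6, Itgb4 and Lama3 were not among them. The 250 bases before the start are shown for Col17a1, called with Si2AK against both controls, Lamb3, called with both siRNAs, and Col7a1, called against NT, each 5′ to 3′ on the gene's strand with the searched motif in capitals.
Col17a1, chr19:47692043-47692292, minus strand: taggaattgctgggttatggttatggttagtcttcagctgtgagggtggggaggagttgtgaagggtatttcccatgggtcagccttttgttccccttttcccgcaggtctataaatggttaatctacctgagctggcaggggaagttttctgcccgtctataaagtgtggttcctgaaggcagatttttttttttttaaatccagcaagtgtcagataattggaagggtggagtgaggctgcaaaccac
Lamb3, chr1:193301744-193301993, plus strand: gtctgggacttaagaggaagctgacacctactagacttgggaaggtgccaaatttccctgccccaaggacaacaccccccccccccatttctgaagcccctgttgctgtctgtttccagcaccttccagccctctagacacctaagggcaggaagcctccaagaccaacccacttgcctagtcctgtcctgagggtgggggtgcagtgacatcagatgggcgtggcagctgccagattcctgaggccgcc
Col7a1, chr9:108953336-108953585, plus strand: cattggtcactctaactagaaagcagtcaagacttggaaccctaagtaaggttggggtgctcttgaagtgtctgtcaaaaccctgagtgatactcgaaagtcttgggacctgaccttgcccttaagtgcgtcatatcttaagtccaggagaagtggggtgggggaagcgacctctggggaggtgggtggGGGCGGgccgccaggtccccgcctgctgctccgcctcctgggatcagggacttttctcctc
Both strands were searched for the AP-1 motif TGANTCA and the GC box GGGCGG, and overlapping matches were each counted. The AP-1 letters were in 0 of the 9 member windows used and in 6.75% of all 32851 RefSeq windows of 250 bases. The member counts leave out Lama3, Itga6 and Itgb4, so they say nothing about the promoters of these genes. The GC box was in 5 of the 9 windows, those of Dst (1 of its 2), Itgb1, Col7a1 (61 bases before the start) and Itga3 (both), and in 32.7% of all windows. The windows of Col17a1 and Lamb3 held neither set of letters.

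The genes whose 14 levels, centred on their own mean, lay nearest to each member were listed as a description, out of 12911 genes well above background on all arrays. For Col17a1 these were Zdhhc9, Hk2 and Fitm2 (root mean square difference 0.111, 0.115 and 0.115 in log2 units, where Col17a1 itself varied by 0.376), for Lama3 Stbd1, Ccdc71l and Usp20 (0.114, 0.114 and 0.117, against 0.338), and for Lamb3 Prmt2, Synj2 and Uck2 (0.104, 0.108 and 0.114, against 0.274). Itgb4 was nearest to Celf4, Rrbp1 and App (0.0858 to 0.0919), and Col7a1 to Dysf, Slco2a1 and Mvp (0.152 to 0.164). Dst lay nearest to Asap2, Cpq and Arih1, Itga6 to Arf1, Htra1 and Trappc4, Itga3 to Npepl1, Slc35a4 and Scaf4, and Itgb1 to Vopp1, Oplah and Nisch.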

How the data were processed

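Total RNA of 14 samples (0.2 µg, RNA integrity number 9, per the labels) was labelled with Cy3, and 600 ng was hybridised to 1-colour Agilent arrays, whose number limits the precision. Per the file headers, Agilent Feature Extraction 10.7.3.1 gave the processed intensity, with background subtracted within each array, and probe positions on mm9. Raw intensities were deposited too, as were marks of other kind, 0 or 1 per the file headers, for spots above background, uneven or outlying. A value table in log2, deposited by the authors for these arrays, is used as an alternative; how its background was handled is unknown. The submitters' processing notes name limma with no version.

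Uneven and outlying spots were left out, spots of a probe averaged, and each array's 75th percentile subtracted from its log2 intensities. A probe was kept if all arrays of some group had it well above background (30326 probes), and the brightest stood for its gene. All 14 arrays entered 1 fit (lmFit and eBayes of limma 3.58.1 in R 4.3.3, with 10 residual degrees of freedom), with Benjamini-Hochberg adjustment over 21374 genes and calls at an adjusted p under 0.05. No member lacked a value. Errors are SD for groups and the moderated SE for differences. The scripts were tested on simulated data. Names came from the array and a RefSeq table. Exon and UTR positions were not analysed here. Members and lists were chosen with earlier results of these data known. Text names the members, list genes that were called (up to 4 in each direction), and the 3 genes nearest to each member. The 29 alternatives covered background, scaling, filter, probe choice, slide, replicate block, samples, weights, the authors' table and left-out arrays. 1 partner gene is not reported here.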

Additional observations from a re-analysis of the deposited data

How the results depend on the processing

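Under 29 alternative fits, 47 of 1566 member differences changed sign, none of them called. In the fit of every probe by itself, this count took only the probe that stood for the gene. Outside it, the dimmer Itga6 probe was at -0.56 for Si2AK minus Si1AK (limma adjusted p = 0.02 over all probes), opposite in sign to the brighter probe. The count of members called against SiC with Si1AK, 3 as reported, was 1 under quantile normalization, with the mean of a gene's probes and without the 2 arrays of raised signal, and 0 with the percentile over probes detected on all arrays, with no filter, in the authors' value table, on slide 1, on slide 2 and with only the groups compared. With Si2AK against SiC (5) it was 1 on slide 1 and on slide 2, 0 with only the groups compared and 3 with both raised arrays left out. For Si2AK against Si1AK (4) it was 1 with no filter, 0 on either slide and 2 with both raised arrays left out. Against NT it was, with Si1AK (2), 1 with no filter and with every probe by itself, 0 on either slide and 4 with array weights, and with Si2AK (4) 0 on slide 1 and 2 on slide 2. Leaving out 1 array gave 0 to 3 and 4 to 6 members against SiC, 1 to 4 between the siRNAs, 1 to 2 and 2 to 5 against NT, and 0 for SiC against NT. With Si1AK against SiC, 0 were called without Si1AK replicate 1 or 2 or SiC replicate 1 or 3.

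Whether replicate numbers pair the samples was not settled. Deviations of same-numbered arrays correlated between -0.69 and 0.74 (median 0.18, 12 of 19 pairs over 0.1). Those of other pairs correlated between -0.85 and 0.87 (median -0.03, 20 of 54 over 0.1). Apart from SiC replicate 2, arrays of the same number also shared a slide. With the replicate block 1 member was called with Si1AK against SiC, 2 between the siRNAs and 1 with Si1AK against NT, where Lamb3 was lost (0.41, limma adjusted p = 0.0737).

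These changed sign. SiC against NT: Itgb1 at 0.035 (normexp), 0.11 (quantile), 0.087 (percentile over detected probes), 0.091 (authors' table), 0.21 (slide 2), 0.018 (replicate block), 0.18 (array weights) and 0.17 (both raised arrays out), Lamb3 at 0.067, 0.048, 0.069 and 0.12 (quantile, percentile, authors' table, slide 2), Col7a1 at -0.023 (slide 1) and Dst at 0.040 (mean of probes). Si2AK against Si1AK: Itgb1 at -0.0074, -0.054, -0.017, -0.088 and -0.0095 (normexp, quantile, percentile, authors' table, slide 1), Lamb3 at -0.011 (authors' table) and -0.067 (slide 1), and with the mean of probes Itga6 at -0.21 and Dst at 0.18. Si1AK against SiC: Itga3 at 0.17 (slide 1). Si1AK against NT: Itga6 at 0.044, 0.094 and 0.072 (quantile, authors' table, mean of probes) and Itgb4 at 0.041 and 0.034 (quantile, authors' table). Si2AK against NT: Itga6 at 0.041, 0.095, 0.12, 0.012, 0.066 and 0.046 (normexp, quantile, authors' table, slide block, slide 2, replicate block). Leaving out 1 array gave ranges across 0 for Itgb1 (-0.13 to 0.17) and Lamb3 (-0.10 to 0.0090) in SiC against NT, for Col7a1 (-0.056 to 0.18) and Itgb1 (-0.083 to 0.077) in Si2AK against Si1AK, for Itga3 (-0.12 to 0.024) with Si1AK against SiC and for Itga6 (-0.073 to 0.064) with Si2AK against NT. Of the list genes called, Itgam was at 0.040 with Si2AK against NT and Parva at -0.37 and -0.51 with Si1AK against NT and SiC (mean of probes), Mmp9 at -0.048 with Si2AK against NT (normexp), and Tln2 at 0.015 and 0.039 with Si1AK against SiC (quantile, authors' table). Where no value shows it, the cause was not tested.

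Scaling moved all genes too. The median with Si1AK against SiC went from -0.06 to 0.06 under quantile normalization, and with Si2AK from -0.02 to -0.14 with the percentile over detected probes. There the split of higher and lower genes, 679 and 263 with Si1AK and 1816 and 997 with Si2AK, became 640 and 538, and 1443 and 1904. Over all genes calls ranged from 0 to 4564 with Si1AK against SiC and from 90 to 4623 with Si2AK. The called members stayed positive in all 29 fits, read on the probe that stood for the gene or on the mean of its probes. Single dimmer probes were not part of this. For Si1AK minus SiC, the Dst probes A_52_P445253 and A_55_P2161132 were at -0.10 and -0.32.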
